A study of Homo sapiens with 6 samples.

Results

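Histone genes were represented by 79 of the 22283 probe sets on the Affymetrix HG-U133A arrays of this study. A probe set was included when its annotated symbol, or each of several, was that of a clustered histone gene (H1-1 to H1-6 and the H2AC, H2BC, H2BU, H3C and H4C genes) or of a variant (other H1- and H3- genes, H2AJ, H2AX, the H2AZ genes and the MACROH2A genes). The clustered class held 62 probe sets annotated to 61 genes, and the variant class held 17 probe sets annotated to 9 genes, H1-10, H2AJ, H2AX, H2AZ1, H2AZ2, H3-3A, H3-4, MACROH2A1 and MACROH2A2. No probe set carried symbols of both classes. Of the 79, 59 carried 1 symbol and 20 carried several. Probe sets with the same list of symbols could read far apart. Of those annotated to the same 14 H4C genes, 205967_at had a mean signal of 315.8 in DMSO and 208181_at one of 20. How many of its listed genes a probe set detects was not tested.

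Histones package DNA in the nucleus: H2A, H2B, H3 and H4 form the nucleosome core, and H1 binds the linker DNA between cores. The clustered genes are transcribed mainly while DNA is replicated, and most of their mRNAs end in a stem-loop in place of a poly(A) tail, although some, H2BC12 and H2AC6 among them, are known to yield polyadenylated transcripts as well. Most variant genes lie apart from the clusters and yield polyadenylated mRNAs, and they supply histones such as H2A.Z, H3.3 and macroH2A that are placed in chromatin at particular sites or at any point of the cell cycle.

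HL60, an established human promyelocytic leukemia line, was treated for 5 days with 1 μM tretinoin, the retinoid known to drive these cells toward granulocytes, in DMSO at 0.1%, or with DMSO at 0.1% and no tretinoin. There were 3 arrays per condition, and the study describes the arrays of a condition as parallel hybridizations of pooled labeled product, so p-values measure the spread between hybridizations and not between cultures. A single cell line was used, and since RNA came from bulk cultures, fewer cells making a transcript and less transcript per cell cannot be told apart.

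Mean signal was 91.3 to 132.7 on the tretinoin arrays and 121 to 152 on the DMSO arrays, and each array was scaled to the mean of DMSO replicate 1. Tretinoin replicate 2 was the dimmest array (scaling factor 1.36, against 0.820 to 1.03 on the other arrays) and had 60.1% of its probe sets above a scaled signal of 20, against 54.9% to 58.1% elsewhere. ACTB, whose 3' probe sets gain on its 5' ones as RNA degrades or labeling falls short, had a 3' over 5' ratio of 1.14 to 1.17 on the tretinoin arrays and 1.38 to 1.42 on the DMSO arrays. The same ratio for GAPDH was 1.15 to 1.19 on the tretinoin arrays and 1.06 to 1.17 on the DMSO arrays and so did not show that difference. The part of either in the results was not tested. As controls of the treatment, NCF1 and ITGAM, which are known to rise in this model, were higher by 4.55 and 2.63 on the log2 scale, CD38 was at least 11.97-fold higher, and MPO was lower by 4.60. Of 8 measured promyelocytic markers, 7 were lower and none was higher (summed signal 522 to 573 on tretinoin arrays and 6806 to 7857 on DMSO arrays), while of 10 measured markers of lymphoid, erythroid, stromal and epithelial cells 6 could be tested and none of these was called (nor did any have an unadjusted p under 0.05), and the summed signals of the 10 overlapped (341 to 409 on tretinoin arrays and 339 to 355 on DMSO arrays). Of these, ALAS2 and KRT19 were at or below 20 on all 6 arrays, whereas CD3E, HBB and COL1A1 exceeded 20 on all 6. Among the promyelocytic markers, ELANE exceeded 20 on the DMSO arrays only, so it could be tested only as a fall.

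The promoters of 6 genes with called probe sets, none of them an H4C gene, are shown first. Those with probe sets that rose and those with probe sets that fell can then be compared in sequence. Each is the 250 bases before the transcription start (RefSeq, build GRCh38.p14), and capitals mark the CCAAT box (CCAAT), the octamer of histone promoters (ATTTGCAT) and the TATA box (TATAAA) on either strand, where neighboring matches can run together. H2BC12 (chr6:27146859-27147108, minus strand), H2AC6 (chr6:26123922-26124171, plus strand) and MACROH2A1 (chr5:135399232-135399481, minus strand) had probe sets that were higher in tretinoin. H2BC6 (chr6:26183511-26183760, plus strand), H2AZ1 (chr4:99950276-99950525, minus strand) and H2AX (chr11:119095466-119095715, minus strand) had probe sets that were lower, that of H2BC6 being one that can match further H2B genes.
H2BC12: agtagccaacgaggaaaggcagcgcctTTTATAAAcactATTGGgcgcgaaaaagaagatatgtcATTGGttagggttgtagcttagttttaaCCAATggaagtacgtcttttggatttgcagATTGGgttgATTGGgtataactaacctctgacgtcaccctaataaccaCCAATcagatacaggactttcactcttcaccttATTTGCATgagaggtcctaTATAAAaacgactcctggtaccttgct
H2AC6: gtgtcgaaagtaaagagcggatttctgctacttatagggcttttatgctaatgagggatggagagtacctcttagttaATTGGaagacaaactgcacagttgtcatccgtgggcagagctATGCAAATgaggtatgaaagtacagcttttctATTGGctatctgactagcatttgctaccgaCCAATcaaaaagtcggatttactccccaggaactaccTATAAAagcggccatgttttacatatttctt
H2BC6: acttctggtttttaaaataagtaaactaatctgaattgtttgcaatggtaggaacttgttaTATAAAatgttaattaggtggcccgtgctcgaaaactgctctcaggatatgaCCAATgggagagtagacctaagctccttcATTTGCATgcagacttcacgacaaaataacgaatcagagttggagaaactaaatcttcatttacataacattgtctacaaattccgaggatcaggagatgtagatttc
H2AZ1: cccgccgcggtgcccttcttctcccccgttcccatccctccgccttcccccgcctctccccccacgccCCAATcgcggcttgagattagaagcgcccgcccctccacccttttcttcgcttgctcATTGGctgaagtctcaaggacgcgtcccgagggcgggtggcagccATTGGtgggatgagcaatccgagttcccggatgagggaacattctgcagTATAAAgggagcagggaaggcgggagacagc
H2AX: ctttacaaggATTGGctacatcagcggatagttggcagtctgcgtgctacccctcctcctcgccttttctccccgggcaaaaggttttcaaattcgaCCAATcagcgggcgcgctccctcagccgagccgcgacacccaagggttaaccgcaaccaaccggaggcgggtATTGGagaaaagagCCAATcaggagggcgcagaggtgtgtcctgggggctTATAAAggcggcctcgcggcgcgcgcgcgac
MACROH2A1: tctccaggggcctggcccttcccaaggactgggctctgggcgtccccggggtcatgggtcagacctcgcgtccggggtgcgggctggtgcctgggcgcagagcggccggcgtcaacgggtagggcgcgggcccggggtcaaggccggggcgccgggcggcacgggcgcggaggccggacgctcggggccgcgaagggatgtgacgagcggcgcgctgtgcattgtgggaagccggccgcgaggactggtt

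The octamer stood in the promoters of H2BC12, H2AC6 and H2BC6. H2BC12 had 6 matches to the CCAAT box against 1 in H2BC6, and its octamer began 46 bases before the start, against 108 in H2BC6. The only TATA match of H2BC6 began 189 bases before the start, whereas H2BC12 and H2AC6 had one at 27 and 31. H2BC6 shares a probe set that was called lower with H2BC4, H2BC7, H2BC8 and H2BC10. H2BC4, H2BC7 and H2BC8 had 3 CCAAT matches each and H2BC10 had 2, all with an octamer. H2BC8 is also annotated, together with H2BC11, to a probe set that was called higher (210387_at). H2BC11 had 4 CCAAT matches and an octamer. H2AZ1 and H2AX had 3 and 4 CCAAT matches, a TATA box 31 bases before the start and no octamer, with 64.0% and 60.8% G or C against 41.6%, 41.2% and 36.4% in H2BC12, H2AC6 and H2BC6. MACROH2A1 held none of the 3 motifs and had 76.4% G or C. Of the 70 histone genes annotated to the 79 probe sets, 64 had a promoter in the RefSeq table. The octamer was found in 12 of 15 clustered H2B genes, 8 of 13 clustered H2A genes, 1 of 8 clustered H3 genes and in none of the clustered H1, clustered H4 or variant genes, against 1.66% of all 27305 promoters of this length. The CCAAT box was found in 81.8% of clustered and 66.7% of variant promoters (33% of all) and the TATA box in 63.6% and 44.4% (11.1% of all). These counts are not independent, since 17 of the 64 windows overlap that of another histone gene.

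Most clustered histone probe sets had signals too low to be compared. A probe set was tested when it exceeded 20 on at least 3 of the 6 arrays, which left 27 of the 62 clustered and 13 of the 17 variant probe sets. Of the 35 clustered probe sets not tested, 23 were at or below 20 on all 6 arrays and 12 exceeded it on 1 or 2 arrays. The linker histones H1-1, H1-3, H1-4, H1-5 and H1-6, with a single probe set each, were all among the 35. The 4 variant probe sets not tested, for H2AJ, MACROH2A2, H3-4 and a further one for H2AX (212524_x_at), were at or below 20 on all 6 arrays. A probe set in the tested group could enter through either condition, so shares of the tested group describe it and do not stand for all 79.

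**Figure D1:**
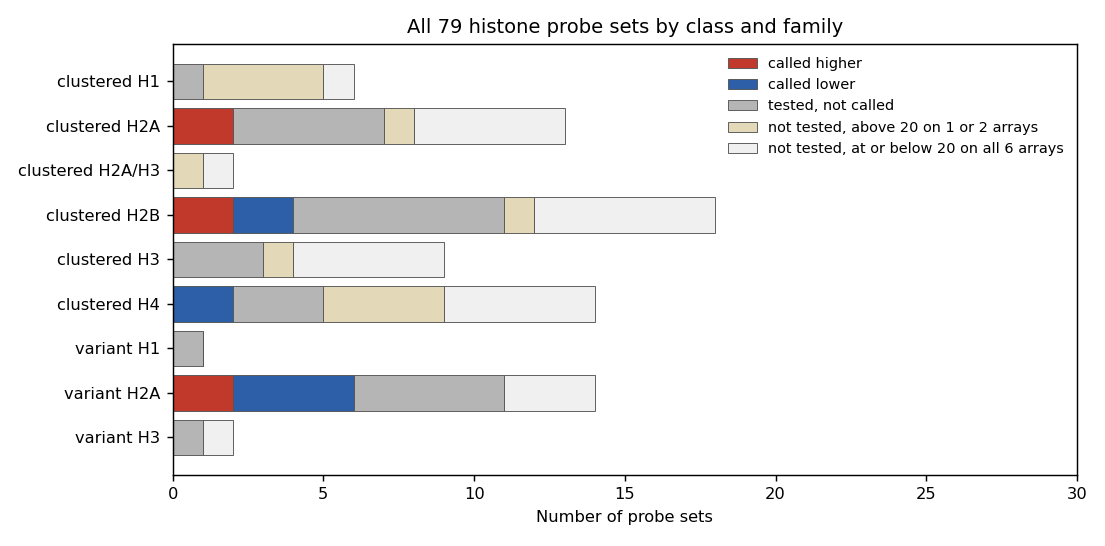
Number of histone probe sets by class and histone family (horizontal axis, all 79), divided by color into those called higher or lower in tretinoin, tested but not called, and not tested for low signal. Tested probe sets are 27 of 62 for clustered and 13 of 17 for variant histones, and called ones are seen only in the H2A, H2B and H4 families.

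Calls required 1.5-fold or more in the fit together with an adjusted p under 0.05 (limma, Benjamini-Hochberg over all 13374 probe sets tested). Of the 27 tested clustered probe sets, 4 were higher (14.8%) and 4 were lower (14.8%), against 13.6% higher and 13.8% lower over the whole array. Of the 13 tested variant probe sets, 2 were higher (15.4%), both of them for MACROH2A1. Lower were 4 (30.8%), belonging to H2AZ1 with 2 probe sets, H2AX and H2AZ2. The clustered shares were thus close to those of the array in both directions, and the variant share of falls rests on 3 genes. The median log2 fold change was 0.07 for tested clustered and -0.37 for tested variant probe sets, beside -0.03 for all tested probe sets. The clustered median was -0.13 without tretinoin replicate 1. The variant median was -0.105 without tretinoin replicate 3 and 0.33 once the 8 H3-3A and H3-3B probe sets outside the rule were added, a choice made after seeing the data, so neither class has a settled direction. Without scaling between arrays, which moved the median of all probe sets by -0.18, the array held 1142 higher and 2312 lower in place of 1824 and 1850, and the clustered class held 3 higher and 7 lower.

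H2BC12, one of the genes for the core histone H2B, had the largest log2 fold change of the 40 histone probe sets tested. Its probe set (209806_at) read 369.8, 369 and 407 on the tretinoin arrays, against 69.1, 81.6 and 64.9 on the DMSO arrays. The conditions were far apart and each was tight, with means of 382 ± 21.7 in tretinoin and 71.9 ± 8.71 in DMSO (SD, n = 3 arrays each), a 5.31-fold rise. The log2 fold change was 2.42 ± 0.14 (SE), with an adjusted p of 5.53e-05 by limma, and under the 16 alternative fits it stayed between 2.18 and 2.51.

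The other H2B probe sets moved in both directions. A probe set annotated to 5 H2B genes, H2BC4, H2BC6, H2BC7, H2BC8 and H2BC10 (208490_x_at), read 112, 110.3 and 101 on the tretinoin arrays and 198, 187 and 174 on the DMSO arrays. It fell without overlap by 0.79 ± 0.12 on the log2 scale (SE, limma, adjusted p = 0.00294). The H2BC6 probe set (208527_x_at) read 78.99, 78.0 and 73.4 in tretinoin and 132.7, 136 and 114 in DMSO, and fell by 0.73 ± 0.13 (adjusted p = 0.00507). All 3 tretinoin arrays were again below all 3 DMSO arrays. Both names end in x_at, which in this array's naming marks probes that can match further transcripts, so neither fall can be given to a single gene. In contrast, a second probe set for the same 5 genes (208523_x_at) read 68.8, 40.1 and 47.5 in tretinoin and 45.6, 65.4 and 47.4 in DMSO. It was not called (log2 fold change -0.04 ± 0.24, adjusted p = 0.931). A further probe set for these genes (214455_at) was at or below 20 on every array and was not tested.

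A probe set for H2BC11 and H2BC8 together (210387_at) read 46.5, 60.3 and 37.3 on the tretinoin arrays and was at or within 1 unit of the floor of 20 on the DMSO arrays (20, 20 and 20.6). It was at least 2.38-fold higher in tretinoin (log2 fold change 1.22 ± 0.19, adjusted p = 0.00279), and with a floor of 40 the adjusted p was 0.354. Another probe set for the same pair (215779_s_at) read 28.6, 29.1 and 30.2 in tretinoin and 20 on each DMSO array. Since it exceeded 20 on the tretinoin arrays only, the low-signal filter fixed its lack of overlap, which adds nothing to the result of 210387_at. Its fitted change of 0.55 ± 0.11 missed the minimum of 1.5-fold (adjusted p = 0.00937). A probe set for H2BC11 alone (214502_at) was at or below 20 on every array and was not tested.

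H2BC5, H2BC21, H2BC9 and H2BC12L did not pass. The probe sets of H2BC5 disagreed: 222067_x_at read 99.7, 87.7 and 77.9 in tretinoin and 54.9, 67.9 and 25.9 in DMSO (log2 fold change 0.94 ± 0.35, adjusted p = 0.0817), whereas 209911_x_at overlapped (-0.15 ± 0.23, adjusted p = 0.678). H2BC21 had a log2 fold change of 0.31 ± 0.23, H2BC9 of -0.54 ± 0.19 and H2BC12L of -0.31 ± 0.30. H2BC12L scattered widely within tretinoin, at 163, 98.5 and 227, against 173, 216 and 187 in DMSO. In all, the 11 tested H2B probe sets ran from -0.79 to 2.42, with 2 called higher (18.2%) and 2 lower (18.2%), against 13.6% and 13.8% over the array.

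**Figure D2:**
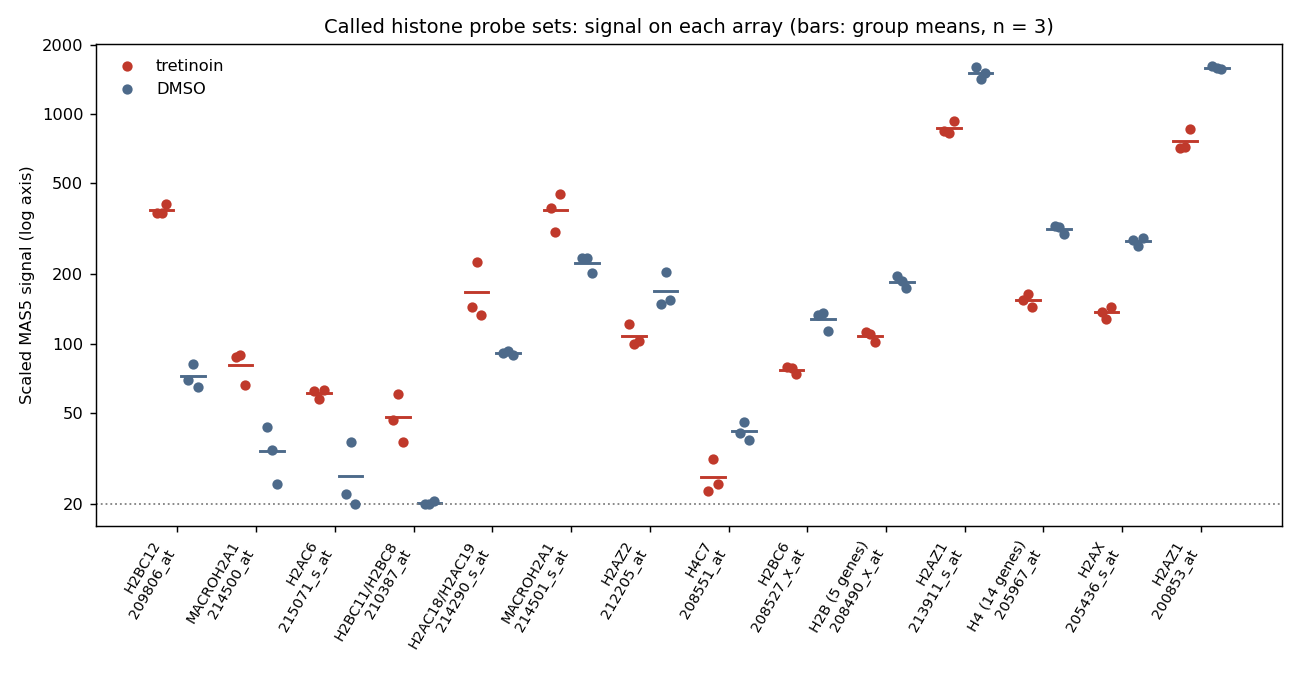
Scaled MAS5 signal (log axis) of the 14 called histone probe sets on each array, with tretinoin in red left of DMSO in blue, bars at the group means and a dotted line at the floor of 20. Groups do not overlap for any of the 14, and H2BC12 shows the widest gap (369 to 407 in tretinoin, 64.9 to 81.6 in DMSO).

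Of 7 tested clustered H2A probe sets, 2 were called higher (28.6%) and none lower (2 were lower at an unadjusted p under 0.05), against 13.6% and 13.8% over the array. H2AC6, a core H2A gene, gave 61.9, 57.3 and 62.8 on the tretinoin arrays (215071_s_at), against 22.1, 37.2 and 20 on the DMSO arrays. It was at least 2.29-fold higher, since one DMSO array was at the floor, with a log2 fold change of 1.25 ± 0.24 and an adjusted p of 0.00708. The name of this probe set ends in s_at, for probes shared by transcripts, and whether H2AC6 alone gave its signal was not tested. H2AC18 and H2AC19, a pair of near-identical H2A genes, share a probe set (214290_s_at) that read 145, 227 and 134 in tretinoin and 90.9, 92.9 and 89.1 in DMSO. The conditions did not overlap, and tretinoin replicate 2 lay well above the other two. The log2 fold change was 0.85 ± 0.21 (adjusted p = 0.0211), and leaving out any one DMSO array brought the adjusted p to between 0.0558 and 0.0606.

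A second probe set of this H2A pair (218280_x_at) read 109.5, 109 and 91.6 in tretinoin and 80.1, 76.1 and 72.4 in DMSO. It moved the same way by 0.44 ± 0.13, under the 1.5-fold minimum (adjusted p = 0.0428). A further probe set of the pair (218279_s_at) was at or below 20 on every array and was not tested. H2AC25 read 34.0, 50.5 and 51.5 in tretinoin and 83.5, 69.7 and 58.2 in DMSO, all 3 tretinoin arrays being lower, but did not pass (-0.65 ± 0.22, adjusted p = 0.0606). H2AC16 was near the floor in tretinoin at 20, 20.5 and 20, against 25.1, 29.2 and 25.5 in DMSO (-0.40 ± 0.12, adjusted p = 0.0465, under the fold minimum). H2AC14 and H2AC17 overlapped between conditions, with log2 fold changes of 0.07 and 0.11.

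Histone H4 fell on a probe set annotated to 14 of the H4C genes (205967_at), which encode one and the same protein. Signal fell to 155, 165 and 144 on the tretinoin arrays, against 326, 322 and 300.1 on the DMSO arrays, a difference of -1.03 ± 0.12 on the log2 scale (adjusted p = 0.000873). The means were 155 ± 10.5 in tretinoin and 316 ± 13.8 in DMSO (SD, n = 3), 2.04-fold lower in tretinoin, and the conditions were widely separated. Of 5 further probe sets with several H4C symbols, none was tested, each exceeding 20 on at most 2 arrays. Which of the 14 genes gave the signal of 205967_at was not tested. H4C7 (208551_at) was low throughout, at 22.8, 31.4 and 24.4 in tretinoin and 40.9, 45.6 and 38.0 in DMSO, and was called lower (-0.67 ± 0.16, adjusted p = 0.0190). That call was lost under 8 of 16 alternatives, among them without DMSO replicate 1 or 2 (adjusted p = 0.0521 and 0.0652), without tretinoin replicate 1 or 3 (0.0660 and 0.0651), and a floor of 40 (0.479). H4C4, H4C8 and H4C9 were not called, with log2 fold changes of -0.11, 0.23 and 0.35, and all 3 DMSO arrays of H4C9 were at the floor.

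Clustered H3 and H1 genes gave no call, although H3C11 and H1-2 had an unadjusted p under 0.05. H3C6 read 46.0, 77.3 and 58.3 in tretinoin and 54.7, 54.8 and 59.7 in DMSO (log2 fold change 0.07 ± 0.20), and a probe set of 10 H3C genes (214646_at) read 20, 34.2 and 34.4 in tretinoin and 25.5, 20 and 20 in DMSO (0.40 ± 0.24). H3C11 was lower on all 3 tretinoin arrays, at 26.9, 29.9 and 20, against 38.1, 31.6 and 49.8 in DMSO, without passing (-0.63 ± 0.22, adjusted p = 0.0717). H1-2, a linker histone of somatic cells, read 32.6, 37.1 and 24.6 in tretinoin and 46.9, 43.5 and 42.7 in DMSO. These did not overlap, but the difference did not pass either (-0.52 ± 0.18, adjusted p = 0.0634).

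Among the variants, H2AZ1, which encodes the main H2A.Z protein found at promoters, fell on both of its probe sets. One (200853_at) read 714, 716 and 863 on the tretinoin arrays, against 1620, 1583 and 1573 on the DMSO arrays, and the other (213911_s_at) read 847, 826 and 932, against 1599, 1418 and 1507. Every tretinoin value was thus below every DMSO value, with changes of -1.06 ± 0.13 (adjusted p = 0.00102) and -0.80 ± 0.12 (adjusted p = 0.00294). The first corresponds to 764 ± 85.1 in tretinoin and 1592 ± 25.0 in DMSO (SD, n = 3), 2.08-fold lower in tretinoin.

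H2AZ2, which encodes the closely related second H2A.Z protein, gave different answers by probe set. The brightest (202487_s_at) read 807, 894 and 800.3 in tretinoin and 733, 737 and 733 in DMSO and was not called (0.18 ± 0.12, adjusted p = 0.297); without scaling its direction turned (-0.02). Another (212205_at) read 122, 99.2 and 103 in tretinoin and 148, 206 and 155 in DMSO and was called lower (-0.64 ± 0.17, adjusted p = 0.0284). That call was lost under 9 of 16 alternatives, among them without DMSO replicate 2 or 3 (adjusted p = 0.0746 and 0.0507), without tretinoin replicate 2 or 3 (0.0701 and 0.0859) and with the replicate number as a block (0.0691). The third (212206_s_at) overlapped between conditions (-0.39 ± 0.18, adjusted p = 0.148). The 3 probe sets thus gave no common direction.

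H2AX, the H2A variant that is phosphorylated around DNA breaks, was 2.05-fold lower in tretinoin on its brightest probe set (205436_s_at), which read 138, 128 and 144 in tretinoin and 281, 267 and 289.6 in DMSO (-1.03 ± 0.12, adjusted p = 0.000800). Its other tested probe sets overlapped between conditions, and tretinoin replicate 2 was the highest tretinoin array on both. 212525_s_at read 52.8, 74.9 and 44.3 in tretinoin and 75.9, 72.4 and 88.2 in DMSO (-0.49 ± 0.21, adjusted p = 0.127), and 213344_s_at read 47.7, 84.2 and 36.8 in tretinoin and 75.8, 60.9 and 68.5 in DMSO (-0.37 ± 0.30, adjusted p = 0.409). Without tretinoin replicate 2 both were called lower, at -0.70 each (adjusted p = 0.0216 and 0.0307).

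MACROH2A1, which encodes macroH2A1, an H2A variant with a large extra domain often found in silent chromatin, was higher in tretinoin. A probe set with low signal (214500_at) read 87.3, 89.5 and 66.2 in tretinoin and 43.1, 34.4 and 24.4 in DMSO (1.28 ± 0.24, adjusted p = 0.00610). A second (214501_s_at) read 388, 306 and 448 in tretinoin and 235, 235 and 202 in DMSO (0.75 ± 0.17, adjusted p = 0.0150). The brightest (207168_s_at) read 788, 692 and 868 in tretinoin and 530.2, 578 and 577 in DMSO and stayed under the 1.5-fold minimum (0.47 ± 0.14, adjusted p = 0.0351). All 3 had the tretinoin arrays above the DMSO arrays, by amounts that differed among probe sets. The call of the second was lost under 4 of 16 alternatives: without DMSO replicate 3 (adjusted p = 0.0514), without tretinoin replicate 1 (0.0509), without scaling (0.166) and with no filter on low values (0.0555).

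H1-10, a replication-independent linker histone, read 198, 118 and 186 on the tretinoin arrays and 108, 99.7 and 102 on the DMSO arrays. All 3 tretinoin values were the higher ones, replicate 2 by the least, and the difference just missed the threshold (0.66 ± 0.21, adjusted p = 0.0523). Without tretinoin replicate 2 it was 0.89 with an adjusted p of 0.00456. H3-3A, one of the genes for the replacement histone H3.3, was not called on its own probe set (213826_s_at), which read 115.5, 110.1 and 129 in tretinoin and 87.7, 81.8 and 114 in DMSO (0.34 ± 0.17, adjusted p = 0.176).

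**Figure D3:**
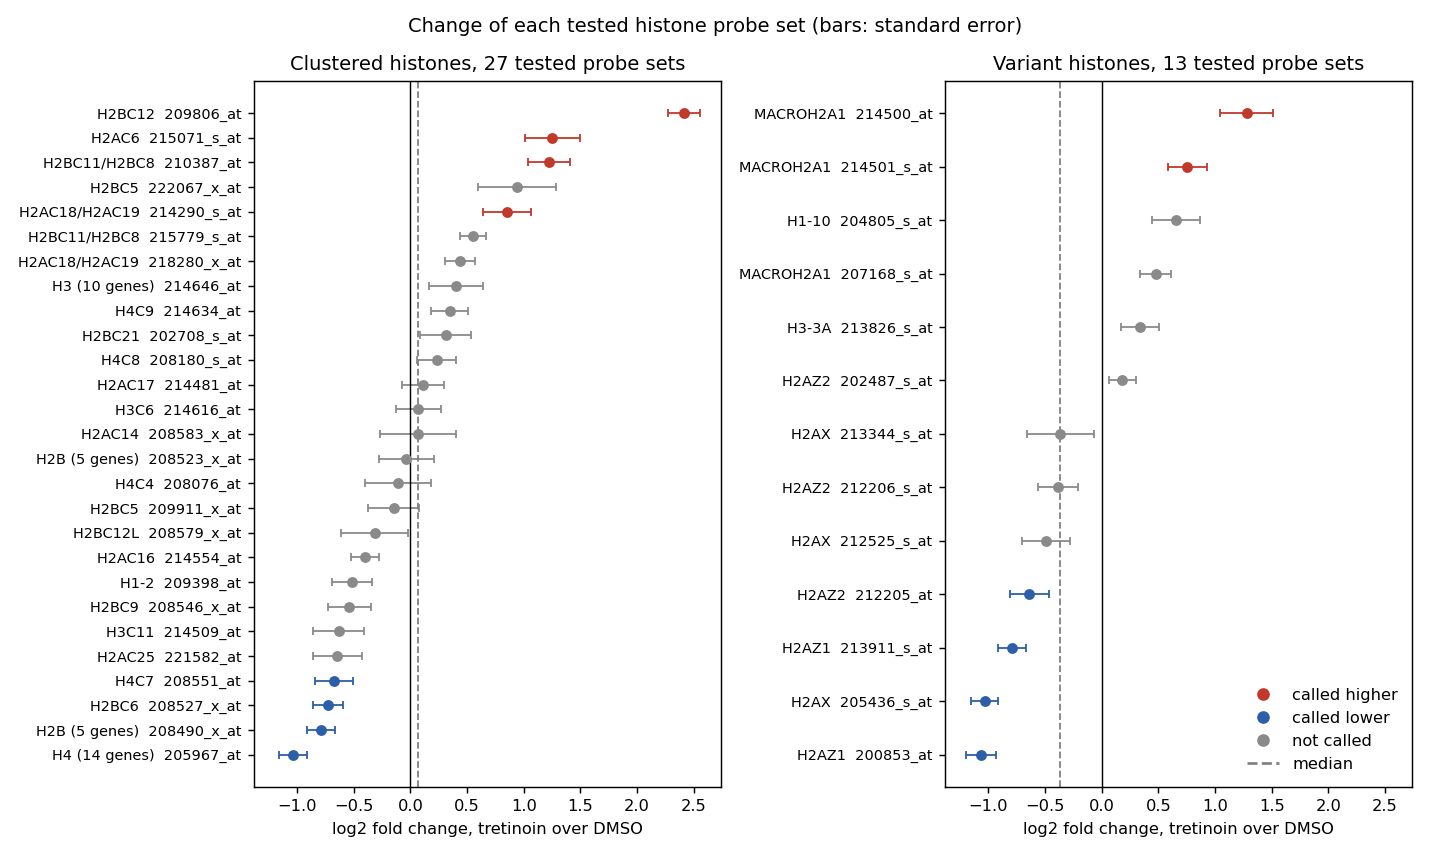
Change on the log2 scale (tretinoin over DMSO) for each of the 27 clustered (left) and 13 variant (right) histone probe sets tested, with bars of 1 standard error, red where called higher, blue where called lower, gray where not called and a dashed line at the class median (0.07 and -0.37). H2BC12 stands at 2.42 at the top of the clustered class, and the variants run from 1.28 for MACROH2A1 to -1.06 for H2AZ1.

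Set side by side, both classes held rises and falls, and neither moved as a block. All 3 tretinoin arrays lay above all 3 DMSO arrays for 8 of 27 clustered (29.6%) and 5 of 13 variant probe sets (38.5%), against 21.7% of all tested, and below for 9 (33.3%) and 4 (30.8%), against 24.3%. Among the 8, 215779_s_at and H4C9 (214634_at) exceeded 20 on the tretinoin arrays only, so the filter fixed their place in this count. Also among the 8, 210387_at exceeded 20 on 1 DMSO array, at 20.6, and so passed the filter through tretinoin. Among the 9, H2AC16 (214554_at) exceeded 20 on 1 tretinoin array, at 20.5, and so passed through DMSO. The shares over all tested probe sets can hold such cases too. No test of the difference between the classes was made, since probe sets of a class share genes and probes. Most clustered histone mRNAs also lack a poly(A) tail, and how far transcripts without a tail were copied in labeling was not tested.

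A list of genes around histone supply held falls and no rise. It covers the transcription and processing of histone mRNA, the chaperones that hand histones to DNA, marks of S phase and partner proteins of chromatin, and each gene is given by its brightest probe set with 1 symbol. Of 58 tested, 32 were lower and none was higher (nor higher at an unadjusted p under 0.05), with a median log2 fold change of -0.63 beside -0.03 for all tested probe sets and 13.8% of the array called lower. The list was chosen with earlier results of these data known, so these shares only describe it. Of 17 genes listed for histone mRNA transcription and processing, 11 had such a probe set. All 10 marks of S phase were lower (median -1.69), as were 16 of 31 chaperones and depositors (-0.59), 3 of 10 genes of histone mRNA transcription and processing (-0.39) and 3 of 7 chromatin partners (-0.21). CDC45 among the S phase marks and YEATS4 among the chaperones, the latter not called, exceeded 20 on the DMSO arrays only. The filter thus fixed their direction, and their changes are lower bounds.

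The 4 largest falls of this list were those of the helicase subunits MCM6 (-2.64) and MCM2 (-2.42), of RUVBL2, an ATPase of complexes that exchange H2A.Z (-2.55), and of NASP, a chaperone of H3 and H4 (-2.23). RUVBL2 was 78.4 ± 4.61 in tretinoin and 458 ± 29.6 in DMSO, and NASP was 47.2 ± 11.2 in tretinoin and 219.6 ± 43.2 in DMSO (SD, n = 3; adjusted p = 2.87e-05 and 0.000419, limma). SLBP, which binds the stem-loop of clustered histone mRNAs, was named after its values were seen: it was 137 ± 17.9 in tretinoin and 239 ± 27.7 in DMSO, a fall of 0.80 on the log2 scale (adjusted p = 0.00731). NPAT, which activates transcription of the histone clusters, was not called (0.12, adjusted p = 0.798), nor were the H3.3 chaperones HIRA (-0.47, adjusted p = 0.126) and DAXX (0.17, adjusted p = 0.724), also named after their values were seen. The S phase marks, H2AZ1, H2AX and the 14-gene H4 probe set were lower in tretinoin, while H2BC12, H2AC6, H2AC18/H2AC19 and H2BC11/H2BC8 were higher. The part of the fall of S phase marks in any of these changes was not tested.

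**Figure D4:**
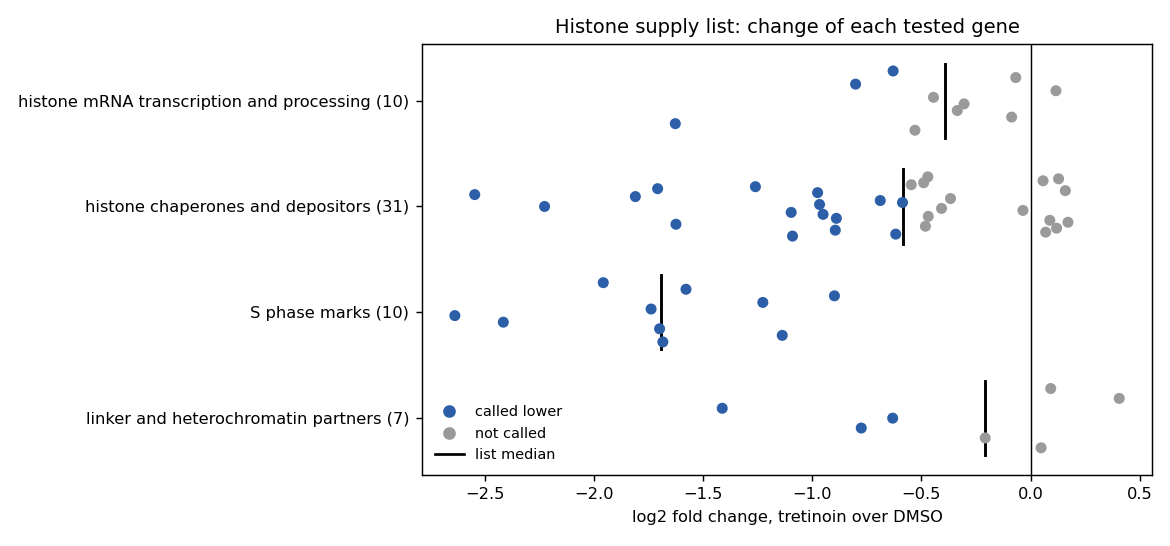
Log2 fold change, tretinoin over DMSO, of the 58 tested genes of the histone supply list, in 4 groups with their number in brackets, blue where called lower and gray where not called, with a black bar at each group median. All 10 marks of S phase lie left of 0 (median -1.69), and no gene of the 58 was called higher.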

How the data were processed

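The authors deposited linear MAS5 signal intensities per probe set for 6 HG-U133A arrays, before scaling between arrays. Labeled cRNA came from a variant of the Eberwine procedure, a linear amplification that usually primes on the poly(A) tail. The primer used is not given in the sources used here, and how far transcripts without a tail were copied was not tested. Here arrays were brought to a common mean, that of DMSO replicate 1. Signals under 20, the baseline of the methods, were raised to 20. Log2 values then entered limma 3.58.1 (lmFit, eBayes, R 4.3.3) over 13374 probe sets above 20 on at least 3 arrays. Calls needed an adjusted p under 0.05 and a 1.5-fold change. The fit was tested on simulated data. Fold is the ratio of condition means, a lower bound where an array of the lower condition was at the floor.

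Symbols came from the platform annotation, updated through gene identifiers: 19071 probe sets had 1 symbol, 1043 several and 2169 none. Of histone probe sets, 15 end in x_at and 18 in s_at (probes shared by transcripts). Array correlations across tested probe sets were 0.957 to 0.975 within and 0.850 to 0.862 between conditions. The number of arrays limits precision. Same-numbered arrays did not deviate together (r = -0.03, -0.01 and 0.07 for replicates 1 to 3), so they were not paired.

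Members and lists were chosen with earlier results of these data known. Named were all called histone probe sets, all tested variants, the 4 largest called changes of the histone supply list in each direction (none was called higher) and the treatment controls. Other tested histone probe sets are given for completeness. Alternatives changed the scaling (none, median, quantile), the floor (10, 40, or an offset of 16), the low-signal filter, the variance model, the fold minimum and the choice of probe set, added the replicate number as a block, and left out single arrays. Python 3.11.15 with pandas 2.3.3, numpy 2.4.6 and matplotlib 3.10.9 was used.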

Additional observations from a re-analysis of the deposited data

Results flagged for a closer look

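Signal was present in histone probe sets that the main class counts left out. There were 8 probe sets for H3-3A and H3-3B, the genes of the replacement histone H3.3, that also carry the symbol of a pseudogene or a microRNA and so fell outside the rule. In 7 of the 8 (87.5%) all 3 tretinoin arrays lay above all 3 DMSO arrays, against 21.7% over the array, and 4 were called higher by limma, against 13.6% (median log2 fold change 0.57). The 8 read the same genes repeatedly, and 4 end in x_at and 2 in s_at, so these shares do not count separate genes. All 4 that were called carry the pseudogene symbol. Those with the microRNA symbol were not called, their largest change being 0.49 (211999_at, adjusted p = 0.0241, under the fold minimum). The largest rise was on 200080_s_at, at 1905 ± 309 in tretinoin and 985 ± 55.5 in DMSO (SD, n = 3; log2 fold change 0.94 ± 0.16, adjusted p = 0.00381), and the brightest, 213828_x_at, was at 7705 ± 299 in tretinoin and 4924 ± 342 in DMSO (0.65 ± 0.12, adjusted p = 0.00662). The exception, 211998_at, overlapped between conditions (-0.14, adjusted p = 0.650). Which of the genes and the pseudogene gave these signals was not tested.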

How the results depend on the processing

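Of the 14 called histone probe sets, all kept their direction under each of the alternative fits run and 8 kept their call under each fit at the 1.5-fold minimum: H2BC12, the 5-gene H2B probe set, H2BC6, the 14-gene H4 probe set, both H2AZ1 probe sets, H2AX and MACROH2A1 (214500_at). With a 2-fold minimum the 5-gene H2B probe set, H2BC6 and H2AZ1 (213911_s_at) would not be called. The calls lost in some fit are H2AC18/H2AC19, H2AC6, H2BC11/H2BC8, H4C7, H2AZ2 and MACROH2A1 (214501_s_at). H2AZ2 (202487_s_at), not called, turned to -0.021 without scaling. With the replicate block 1743 probe sets of the array were higher and 1758 lower, and among the calls reported H2AZ2 (212205_at) was lost.

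Probe sets called higher over the array numbered 1142 without scaling and 1012 with a 2-fold minimum, and those called lower 860 with a 2-fold minimum. Each array left out gave 1442 to 1734 higher and 1521 to 1967 lower.

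Clustered probe sets called higher were 2 with a floor of 40, with no filter, above 20 on all 6 arrays, with 1 symbol only and with 1 probe set per gene (3 to 5 with an array left out). Those called lower were 7 without scaling, 1 with a 2-fold minimum and 2 with 1 symbol or 1 probe set per gene (3 to 5). Variants called higher were 1 without scaling, with no filter and with a 2-fold minimum, 0 with the brightest probe set per gene and 6 with the H3-3A and H3-3B probe sets outside the rule, an alternative added after seeing the data (1 to 3 with an array left out, 1 without DMSO replicate 3 or tretinoin replicate 1). Variants called lower were 2 with a 2-fold minimum and with 1 probe set per gene (3 to 5).

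The clustered median was -0.187 without scaling and -0.13 above 20 on all 6 arrays (-0.132 to 0.043 with an array left out, -0.132 without tretinoin replicate 1), so its sign is not settled. The variant median was 0 with no filter and 0.329 with those H3-3A and H3-3B probe sets (-0.447 to -0.105 with an array left out, -0.105 without tretinoin replicate 3). The cause of these shifts was not tested, except that fewer or more probe sets enter under another filter or choice. Low signal limits most: 39 of the 79 histone probe sets were not tested.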
